A study of Homo sapiens with 4 samples.

Results

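The 59 genes described here lie on the distal long arm of chromosome 11, from ME3 to ACAD8, and were chosen because their measured differences in the comparison below ran the same way. Each was found by its symbol or an older alias in the array's annotation, all 59 were measured, and they are 59 of the 18417 genes that had a transcript cluster of their own. A transcript cluster is a group of array probes summarised as 1 value. Its annotation can give 1 gene symbol, several or none, and named clusters are those with at least 1. A gene's own cluster gives its symbol alone. Where a gene had several clusters of its own, the one with the highest mean stands for it. In the order of the RefSeq gene table, 318 measured genes lie from ME3 to the end of the arm, so that 259 neighbours on the same stretch are not members. Because the choice rested on this comparison, the members' differences are given as a description, with no test over them.

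RNA of OVCAR-3 cells, an established line derived from a human ovarian adenocarcinoma, was measured on 4 Affymetrix arrays of a single colour. In 2 arrays the cells carried a vector lacking H1.3 ("vector only"), and in 2 they are labelled as overexpressing human H1.3, a linker histone, in an otherwise unmodified OVCAR-3 background as far as the labels say. The promoter of the vector, the selection of cells and what (H) in the titles stands for are not stated in these sources. Replicates are called biological, but no label ties them to separate cultures, transfections or clones. The p-values therefore cover only how far these arrays differ from each other. H1-3, the gene for H1.3, gave log2 values of 8.65 and 7.88 with vector only against 7.47 and 7.69 under the H1.3 label. That difference of -0.69 ± 0.24 (SE) goes against the label without passing limma (adjusted p = 0.319). Leaving out 1 array at a time gave -1.07 to -0.30, the smallest difference when the first vector-only array was dropped. Every direction below therefore belongs to "the arrays labelled H1.3".

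Most of the cell line's markers were present: of 15 epithelial ovarian carcinoma markers, PAX8, KRT8 and EPCAM averaged 11.1, 12.9 and 11.5, whereas ESR1 averaged 4.84. FOLR1, the folate receptor alpha gene, passed limma among them, lower by a log2 difference of -1.26 (adjusted p = 0.0291), a call lost when any 1 array was left out. FOLR1 averaged 6.155, below the median of all named clusters (6.84), and it also lies on chromosome 11. EPCAM, MSLN and CLDN3 differed by -0.57, -0.49 and -0.33 and did not pass. KRT7 and PAX8 differed the other way, by 0.32 and 0.13, and did not pass either. Of the 15 markers, 9 lay below 0, 5 above and 1 at 0, with a median of -0.07. Of 11 measured markers of leukocytes, endothelium and fibroblasts, the averages ran from 2.93 for LUM to 7.51 for COL1A1. None of these 11 passed limma, and PTPRC, the pan-leukocyte marker, averaged 3.28. The array medians lay between 6.21 and 6.27, and Pearson's r over all named clusters was 0.993 for both replicate pairs and 0.987 to 0.991 across groups.

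A run of neighbouring genes on a chromosome arm is not a pathway. The members encode mitochondrial enzymes, transcription factors, glycosylation enzymes, ubiquitin ligases, cilium motors, RNA-processing factors, checkpoint kinases and proteases, whose common feature is position. Chromosomal neighbours can share local chromatin, and some are arranged head to head, with starts on opposite strands only a short distance apart and a common stretch of promoter between them. Linker histones such as H1.3 bind where DNA enters and leaves the nucleosome and help to compact chromatin. The arrays measured RNA only, and no cause of the members' shared direction, of these or any other kind, was tested.

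Of the 17 head-to-head pairs found among measured genes from ME3 onwards with starts within 1000 bases of each other, 3 had a member on both sides. Their shared promoter stretches are printed because one short DNA segment there precedes the starts of both genes of a pair. They were read from the RefSeq promoter table of assembly GRCh38.p14. Capitals mark matches to the ETS motif (CCGGAAG, or CTTCCGG on the other strand) and to the CCAAT box (ATTGG on the other strand), and the gene named first is transcribed leftwards.
CCDC82/JRKL, chr11:96389913-96390012, plus strand: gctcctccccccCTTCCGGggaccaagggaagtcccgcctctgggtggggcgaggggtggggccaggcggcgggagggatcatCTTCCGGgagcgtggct
NPAT/ATM, chr11:108222817-108223066, plus strand: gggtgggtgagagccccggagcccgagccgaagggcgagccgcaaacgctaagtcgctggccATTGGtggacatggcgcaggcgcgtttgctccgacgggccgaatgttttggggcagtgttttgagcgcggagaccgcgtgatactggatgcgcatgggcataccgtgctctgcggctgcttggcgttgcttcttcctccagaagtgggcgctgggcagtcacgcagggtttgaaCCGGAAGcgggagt
THYN1/ACAD8, chr11:134253353-134253567, plus strand: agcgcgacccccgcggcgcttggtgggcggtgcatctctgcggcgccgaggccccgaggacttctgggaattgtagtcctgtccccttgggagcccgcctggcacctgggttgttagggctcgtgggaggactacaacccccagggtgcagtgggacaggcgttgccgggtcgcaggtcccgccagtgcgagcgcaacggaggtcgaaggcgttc
The first stretch is the 100 bases between the starts of CCDC82 and JRKL, with 74.0% G or C and 2 ETS matches. The second is the 250 bases before the start of ATM, which lies 429 bases from that of NPAT. It has 64.4% G or C, 1 CCAAT match and 1 ETS match. The third is the 215 bases between THYN1 and ACAD8, with 69.3% G or C, and it holds no match to the motifs searched.

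Both genes of each printed pair measured lower in the arrays labelled H1.3. These pairs were printed because both genes are members, and members were chosen by their direction. Their shared direction is therefore no test of the promoter stretch between them. Pairs in which 1 gene stood near 0 are given under Other observations. CCDC82, a coiled-coil protein gene, gave 6.66 and 6.75 with vector only and 6.11 and 6.52 under the H1.3 label. Its partner JRKL, which encodes a protein with a transposase-derived DNA-binding fold, measured 8.25 and 8.01 against 7.42 and 7.68. The differences were -0.39 ± 0.16 and -0.58 ± 0.15 (SE), and in neither gene did the groups overlap. NPAT, the coactivator of replication-dependent histone genes, measured 7.64 and 7.53 against 6.90 and 7.0. ATM, the kinase that signals DNA double-strand breaks, measured 7.67 and 7.63 against 6.51 and 7.08. Here the differences were -0.64 ± 0.12 and -0.86 ± 0.19 (SE), and the first array labelled H1.3 lay lowest in both genes. THYN1, a nuclear protein with an EVE domain, measured 7.11 and 7.12 against 6.53 and 6.74. ACAD8, the isobutyryl-CoA dehydrogenase of valine breakdown, measured 7.54 and 7.31 against 6.75 and 7.05. This pair differed by -0.48 ± 0.13 and -0.53 ± 0.15 (SE), again with no overlap between groups.

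Across all 59 members, 58 had a negative difference, IL18 stood at 0.00 and none was positive. The median log2 difference was -0.59, a ratio of 0.667, with quartiles of -0.76 and -0.41 and a range from -1.14 (ME3) to 0.00. Of all 21214 named clusters, 45.9% had a difference below 0. After a second quantile normalization the IL18 difference was also below 0, which made 59 of 59, and with all arrays set to one median the count stayed at 58. In these bulk samples, fewer cells expressing a gene and less RNA per cell cannot be told apart.

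The 2 groups did not overlap, with both arrays labelled H1.3 below both vector-only arrays, in 51 members (86.4%), against 19.4% of all named clusters. The members whose groups overlapped were CWF19L2, FDX1, CRYAB, IL18, BACE1, CBL, HSPA8 and ETS1. In limma 5 members passed at an adjusted p under 0.05, namely TMPRSS4, ME3, SORL1, CUL5 and ZW10, with adjusted p from 0.0228 to 0.0475. Over all named clusters 0.264% passed in this direction, and nothing is read from that contrast, which the choice of members used. TIMM8B and USP28 lay just outside, at 0.0509 and 0.0559. At an unadjusted p under 0.05 there were 47 members, against 6.34% of all clusters. When any 1 of the 4 arrays was left out, limma called 0 members at an adjusted p under 0.05, with 29 to 44 at an unadjusted p under 0.05.

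**Figure D1:**
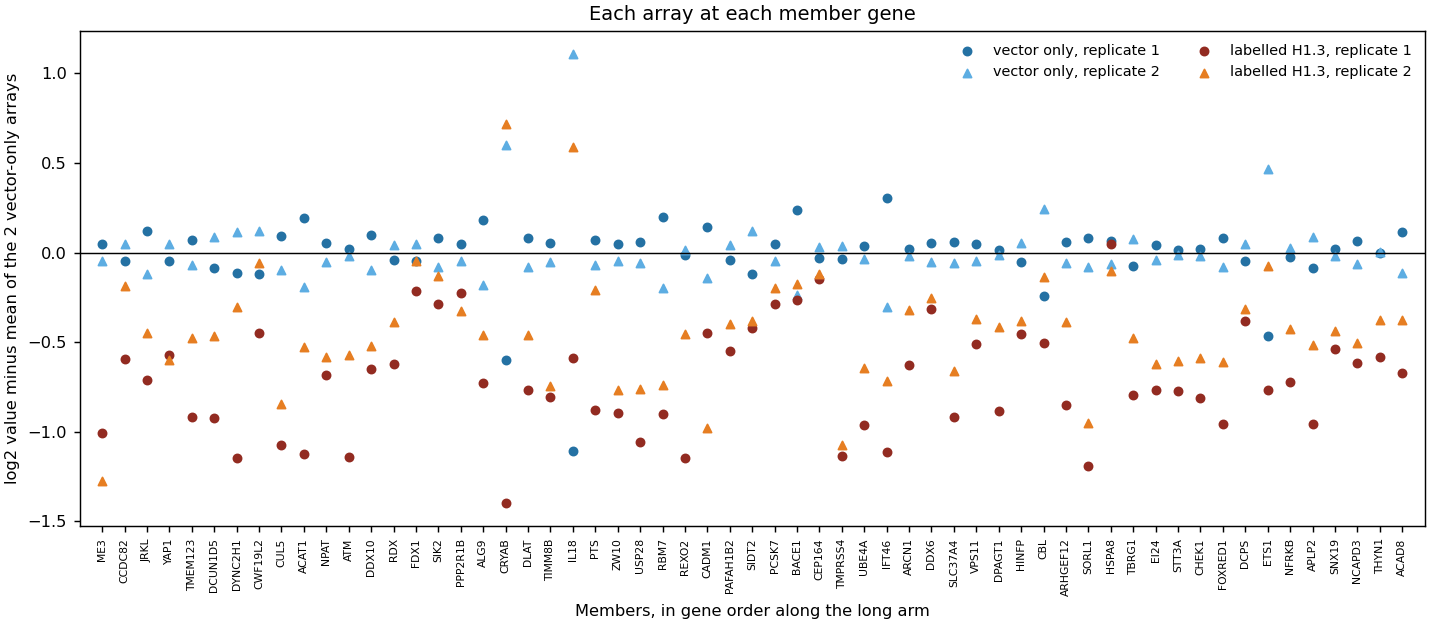
Log2 value of each array minus the mean of both vector-only arrays, for the 59 members in gene order along the long arm; circles and triangles are replicates 1 and 2. The arrays labelled H1.3 lie below the vector-only arrays in 51 members, while in IL18 and CRYAB the replicates lie far apart in both groups.

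Among the mitochondrial and metabolic enzymes, 10 members had negative differences with a median of -0.70. ME3, the mitochondrial NADP-dependent malic enzyme, gave 7.43 and 7.34 with vector only and 6.38 and 6.11 under the H1.3 label. It differed by -1.14 ± 0.14 (SE), the widest gap of any member, and here the second array labelled H1.3 was the lower one. FDX1, the mitochondrial ferredoxin that passes electrons to steroidogenic cytochromes, measured 6.51 and 6.60 against 6.34 and 6.51. Its groups touched at 6.51, and the difference was -0.13 ± 0.12 (SE). Between these lay ACAT1, the acetoacetyl-CoA thiolase of ketone and isoleucine metabolism, at -0.83, and SLC37A4, which carries phosphorylated glucose into the endoplasmic reticulum, at -0.79. FOXRED1, an assembly factor of respiratory complex I, differed by -0.79, and TIMM8B, a chaperone of mitochondrial protein import, by -0.78. DLAT, the acetyltransferase core of the pyruvate dehydrogenase complex, differed by -0.62, and PTS, an enzyme of tetrahydrobiopterin synthesis, by -0.55 (-0.88 to -0.21 with 1 array left out). ACAD8, described above, and PAFAH1B2, a catalytic subunit of a platelet-activating factor acetylhydrolase, stood at -0.53 and -0.48. TIMM8B was also reported by a second cluster, which differed by -0.67.

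The ubiquitin and NEDD8 genes had the median of -0.81 over 5 members. CUL5, the scaffold of a cullin-RING ubiquitin ligase, measured 7.84 and 7.65 against 6.67 and 6.90, a difference of -0.96 ± 0.14 (SE). The lowest vector-only value stood well above the highest value labelled H1.3. CBL, a ubiquitin ligase for receptor tyrosine kinases, measured 7.19 and 7.68 against 6.93 and 7.30, so that its groups overlapped, and differed by -0.32 ± 0.20 (SE). USP28, a deubiquitinase, differed by -0.91, UBE4A, a ubiquitin chain elongation factor, by -0.81, and DCUN1D5, which helps to attach NEDD8 to cullins, by -0.70.

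Of the genes for DNA damage signalling and cell division, 5 in number with a median of -0.70, ATM differed most and has been described above. ZW10, a subunit of the kinetochore RZZ complex, measured 7.77 and 7.68 against 6.83 and 6.96, a difference of -0.83 ± 0.12 (SE). CHEK1, the checkpoint kinase that acts at stalled replication forks, differed by -0.70, and NCAPD3, a subunit of condensin II, by -0.56. CEP164, a distal appendage protein of the mother centriole, measured 6.48 and 6.54 against 6.36 and 6.39. Its difference of -0.14 ± 0.11 (SE) was small although the groups did not overlap. Another cluster, annotated to both the small nucleolar RNA gene SNORD42B and CEP164, averaged 7.58 and differed by -0.41. Which of these genes it reports is not known, so it is not taken as a reading of CEP164.

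Both cilium genes measured lower as well. IFT46, a component of the intraflagellar transport train, measured 8.74 and 8.13 against 7.32 and 7.72, a difference of -0.92 ± 0.22 (SE). DYNC2H1, the heavy chain of the dynein that drives retrograde intraflagellar transport, measured 7.17 and 7.40 against 6.14 and 6.98. It differed by -0.73 ± 0.26 (SE), from -1.15 to -0.31 with 1 array left out, and its second cluster by -0.52. The first array labelled H1.3 was the lower of its group in both genes.

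Among the 9 genes for glycosylation and for secretory or endosomal traffic, the median was -0.60 and no member's groups overlapped. SORL1, the sorting receptor that returns amyloid precursor protein from endosomes, measured 8.73 and 8.57 against 7.46 and 7.70. The difference was -1.07 ± 0.14 (SE). SIDT2, a lysosomal membrane protein, measured 6.67 and 6.91 against 6.37 and 6.41, and its difference of -0.40 ± 0.13 (SE) was the smallest of the group. The N-glycosylation enzymes DPAGT1 (first step of the lipid-linked oligosaccharide), ALG9 (a mannosyltransferase) and STT3A (catalytic subunit of oligosaccharyltransferase) differed by -0.65, -0.60 and -0.69. The coat and tether genes ARCN1 (delta subunit of COPI) and VPS11 (core of the HOPS and CORVET tethers) differed by -0.48 and -0.44. SNX19, a sorting nexin, differed by -0.49, and TMEM123, a glycosylated surface protein, by -0.70.

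The transcription and chromatin genes, 7 in number, lay close together, from -0.64 to -0.42, with a median of -0.58. NPAT, given above, was level with TBRG1, a growth-inhibitory nuclear protein, both at -0.64. YAP1, the Hippo pathway coactivator, differed by -0.59, JRKL by -0.58 and NFRKB, a subunit of the INO80 remodeller, by -0.58. HINFP, the zinc-finger activator of histone H4 genes, measured 7.64 and 7.75 against 7.24 and 7.31, a difference of -0.42 ± 0.12 (SE) with no overlap. ETS1, an ETS-family transcription factor, had the same difference, -0.42 ± 0.33 (SE), with values of 6.99 and 7.92 against 6.69 and 7.38. Its spread between replicates was wider than the difference, and without vector-only replicate 2 the sign turned (0.05).

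For RNA handling, the median over 7 members was -0.48. RBM7, the RNA-binding subunit of the nuclear exosome targeting complex, measured 7.30 and 6.90 against 6.20 and 6.36, a difference of -0.82 ± 0.16 (SE). CWF19L2, a spliceosome-associated protein, measured 6.59 and 6.83 against 6.26 and 6.65, with overlapping groups and a difference of -0.26 ± 0.16 (SE). REXO2, an oligoribonuclease, differed by -0.80, and DDX10, a helicase of ribosome assembly, by -0.59. DCPS, the scavenger decapping enzyme, differed by -0.35, and DDX6, a helicase of decapping complexes and P-bodies, by -0.29. THYN1, grouped with them, stood at -0.48.

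The proteases and amyloid precursor family spread most widely of the role groups (SD over genes 0.42), with a median of -0.49 over 4 members. TMPRSS4, a membrane serine protease, measured 9.06 and 9.13 against 7.96 and 8.02. Its replicates lay closer together than those of the other passing members, and it differed by -1.11 ± 0.11 (SE). BACE1, the beta-secretase that cleaves amyloid precursor protein, measured 7.08 and 6.61 against 6.58 and 6.67. Those groups overlapped, and the difference of -0.22 ± 0.17 (SE) turned to 0.02 without vector-only replicate 1. APLP2, a relative of amyloid precursor protein, differed by -0.74, and PCSK7, a proprotein convertase, by -0.25.

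Signalling, cytoskeleton and adhesion genes had a median of -0.39 over 6 members. CADM1, an immunoglobulin-family adhesion molecule, measured 8.37 and 8.09 against 7.78 and 7.25, a difference of -0.72 ± 0.19 (SE). ARHGEF12, an activator of RhoA, differed by -0.62, and RDX, the membrane-to-actin linker radixin, by -0.51. PPP2R1B, a scaffold subunit of protein phosphatase PP2A, differed by -0.28, and SIK2, a salt-inducible kinase, by -0.21. IL18, the inflammasome-processed cytokine, measured 5.18 and 7.40 against 5.70 and 6.88. The replicates of each group lay further apart than the groups, whose means were equal, and with 1 array left out the difference ran from -1.11 to 1.11.

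The 3 chaperone and stress genes had unlike values. EI24, a p53-induced protein of the endoplasmic reticulum with a part in autophagy, measured 9.47 and 9.39 against 8.66 and 8.81, a difference of -0.70 ± 0.12 (SE). CRYAB, the small heat shock protein alpha-B crystallin, measured 7.71 and 8.91 against 6.91 and 9.03. Its difference of -0.34 ± 0.65 (SE) turned to 0.72 without H1.3 replicate 1 and to 0.26 without vector-only replicate 2. HSPA8, the constitutive cytosolic HSP70, measured 13.08 and 12.95 against 13.06 and 12.91. It differed by -0.03 ± 0.12 (SE), with values above 0 (0.05 and 0.04) without H1.3 replicate 2 and without vector-only replicate 1. Within the HSPA8 gene lies SNORD14C, a small nucleolar RNA measured by its own cluster, which was picked out after its values were seen. It measured 7.79 and 7.57 against 7.36 and 7.01, a difference of -0.50 ± 0.16 (SE).

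**Figure D2:**
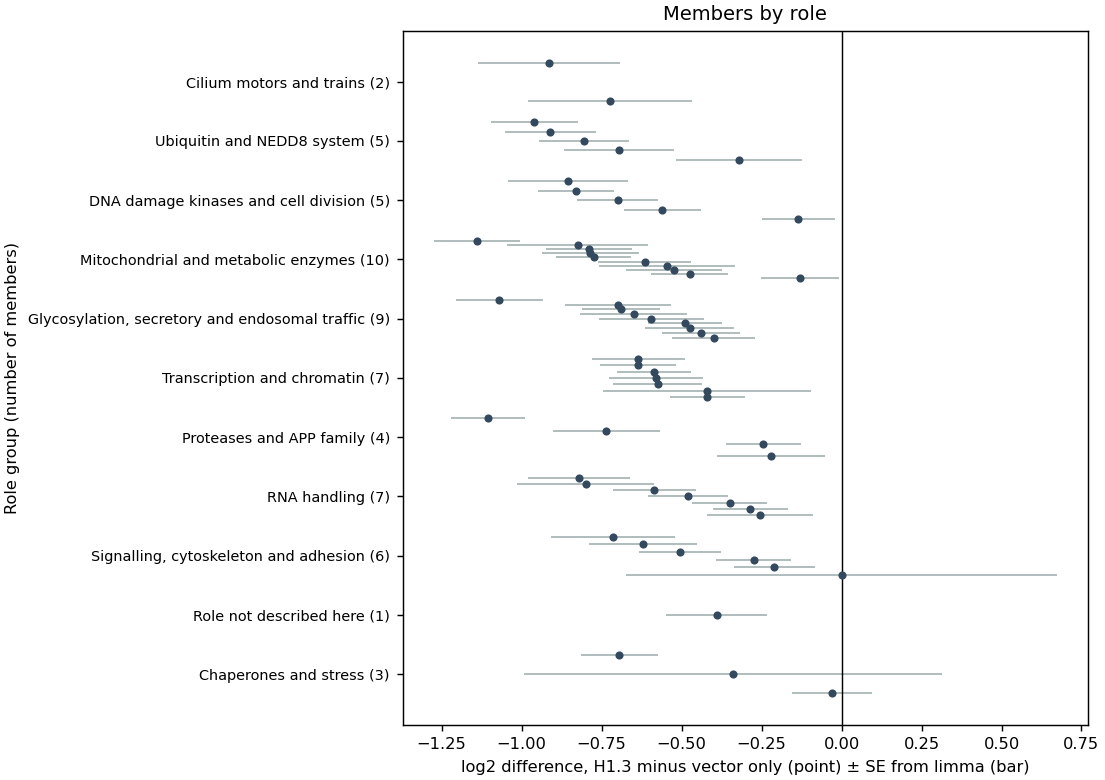
Log2 difference, arrays labelled H1.3 minus vector only, for each member (point) with its limma standard error (bar), grouped by role. Group medians lie between -0.82 for the 2 cilium genes and -0.34 for the 3 chaperone and stress genes; IL18 and CRYAB carry the widest errors.

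Differences did not run in a steady slope along the arm. In gene order, the median was -0.70 from ME3 to ATM (12 members), -0.53 from DDX10 to ZW10 (12), -0.76 from USP28 to IFT46 (12), -0.55 from ARCN1 to EI24 (12) and -0.56 from STT3A to ACAD8 (11). The last run was the narrowest, with all 11 members between -0.79 and -0.35. Members next to each other in gene order differed from each other by a median of 0.18 over 58 pairs, and any pair of members by a median of 0.25 over 1711 pairs.

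The brighter members had the larger median difference. The 50 members whose mean reached the median of all named clusters, 6.84, had a median of -0.62, and the 9 dimmer members a median of -0.26. These 9 were ME3, CCDC82, CWF19L2, FDX1, IL18, RBM7, SIDT2, BACE1 and CEP164. Over the 59 members, which share the same 4 arrays, Pearson's r between level and difference was -0.05 and Spearman's rho was -0.23. Without HSPA8 these were -0.26 and -0.29.

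The rule asked for each array pair, and the 4 pairs share arrays, so they are not separate experiments. The first array labelled H1.3 differed from the vector-only arrays by medians of -0.79 and -0.73 over the members, with 58 members below 0 in each pair. The second differed by -0.44 and -0.43, with 53 and 57 below 0. The first array labelled H1.3 thus stood further from the vector-only arrays than the second. The median deviation of a member from its own mean over all arrays was 0.34 and 0.28 in the vector-only arrays, -0.43 in the first array labelled H1.3 and -0.15 in the second.

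The difference between the replicates of a group was not used to choose the members. In the arrays labelled H1.3, replicate 2 was above replicate 1 in 54 of the 59 members, with a median of 0.23, against 44.7% of all named clusters and 56.9% of the 9308 genes at or above the median level. In the vector-only arrays replicate 2 was above replicate 1 in 22 members, with a median of -0.08, against 50.1% of all clusters and 44.1% of the genes at that level. The 59 neighbours at or above the median level that are not members showed medians of 0.30 in the arrays labelled H1.3 and -0.09 in the vector-only arrays. Outside chromosome 11 the same medians over 8746 genes were 0.04 and -0.02. These replicate differences were not tested.

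**Figure D3:**
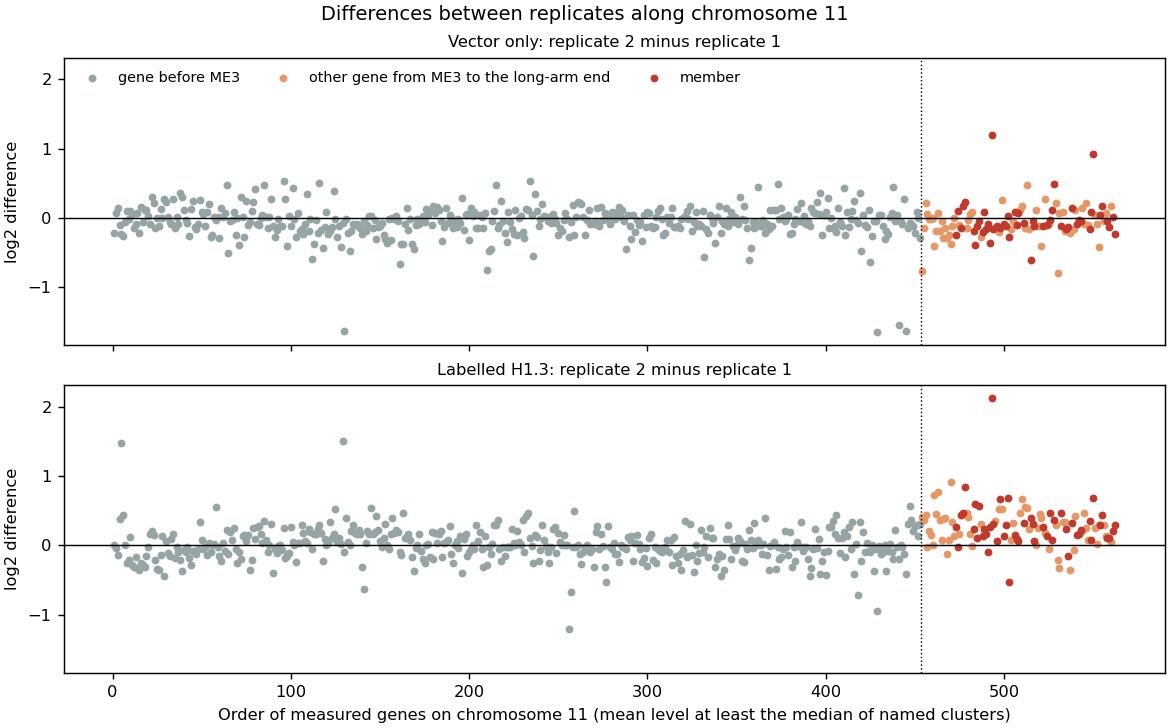
Log2 difference between replicates (2 minus 1) within each group, for genes of chromosome 11 with a mean at or above the median of named clusters, in gene order; the dotted line marks ME3. Beyond ME3 most points of the lower panel, for the arrays labelled H1.3, lie above 0 (46 of 50 plotted members and 50 of 59 other genes). In the upper panel, for vector only, 16 of 50 members and 20 of 59 other genes lie above 0, with a median of -0.09 in each set.

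Genes of the same stretch that are not members gave a split picture by level. The 259 of them had a median of -0.12, with 164 below 0. The 59 at or above the median level had a median of -0.57, with 57 below 0. Groups did not overlap on the lower side in 54 of them and on the higher side in 1, CTSC. Among all 9308 genes at that level, 50.9% lay below 0 and 25.6% had groups without overlap on the lower side. The 200 dimmer neighbours had a median of -0.02, with 107 below 0.

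Of these 259 neighbours, 2 passed limma, both dim on average and in opposite directions. Of all named clusters, 0.504% passed in either direction, 0.264% lower and 0.24% higher. NOX4, a hydrogen peroxide-producing NADPH oxidase, gave 6.64 and 6.95 with vector only and 4.82 and 5.36 under the H1.3 label, and fell by 1.71 ± 0.20 (SE, adjusted p = 0.0273). GRIA4, an AMPA receptor subunit, measured 4.60 and 4.85 against 6.74 and 6.41, a rise of 1.85 ± 0.16 (SE, adjusted p = 0.00956). With any 1 array left out neither passed.

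Of the brighter neighbours, the lowest differences belonged to PRSS23, a secreted serine protease, SCARNA9, a guide RNA of Cajal bodies, and SDHD, a membrane anchor of respiratory complex II. PRSS23 measured 9.04 and 8.28 against 7.09 and 7.50 (-1.37 ± 0.25, SE). SCARNA9 measured 10.50 and 10.10 against 8.69 and 9.41 (-1.25 ± 0.24), and SDHD 10.32 and 10.12 against 8.92 and 9.44 (-1.04 ± 0.19). At the other end stood CTSC, the lysosomal protease cathepsin C, with 9.20 and 9.26 against 9.33 and 9.30 (0.09 ± 0.11), and OAF with 6.87 and 6.94 against 7.07 and 6.75 (0.01 ± 0.14, from -0.16 to 0.17 with 1 array left out). TRIM29, a tripartite motif protein of epithelia, measured 9.64 and 8.85 against 9.20 and 8.99 (-0.15 ± 0.24), and its sign turned (0.25) without vector-only replicate 1.

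**Figure D4:**
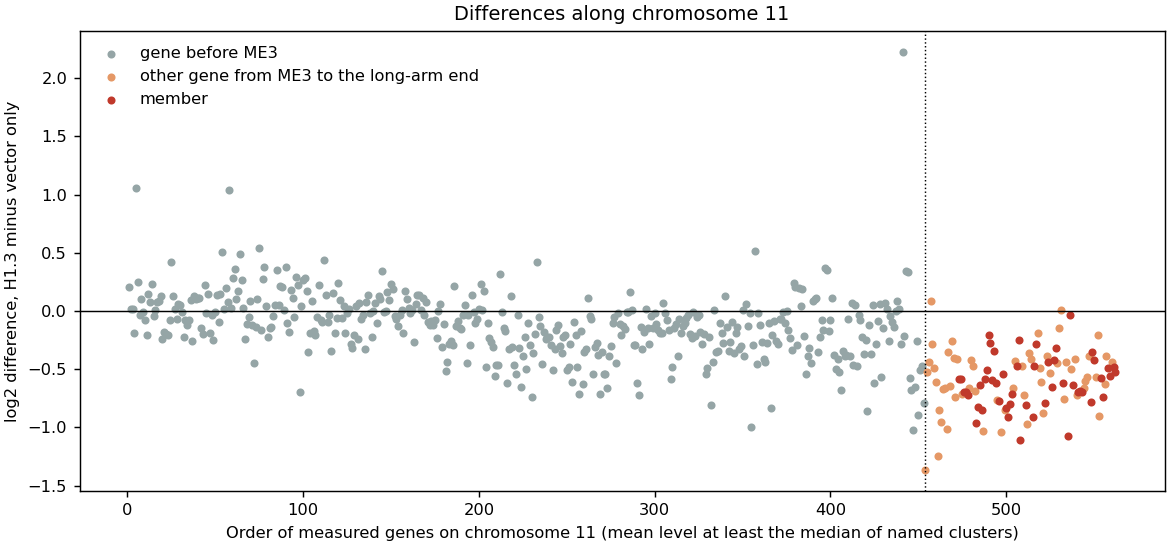
Log2 difference, arrays labelled H1.3 minus vector only, for genes of chromosome 11 with a mean at or above the median of named clusters, in gene order; the dotted line marks ME3. Beyond ME3, all 50 members at that level and 57 of 59 other genes lie below 0, and genes shortly before ME3 lie low as well.

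ME3 was not where the low run began. In gene order ME3 precedes CCDC82 by 40 measured genes, and the 19 of these at or above the median level had a median of -0.61, with 18 below 0. The 12 genes at that level just before ME3 had a median of -0.54, with 10 below 0. The exceptions, KCTD21 at 0.34 and USP35 at 0.34, preceded a run from NARS2 (-0.68) through PRCP (-1.02) to HIKESHI (-0.79). Between USP35 and NARS2, GAB2 measured 9.03 and 7.40 against 7.85 and 7.43, with overlapping groups and a difference of -0.58 ± 0.46 (SE). ME3 therefore marks the first of the chosen genes and no edge in the values.

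Values elsewhere are given for genes at or above the same level. From PPFIA1 up to ME3, the median over 77 genes was -0.22, with 70.1% below 0. Over the 376 genes of chromosome 11 before PPFIA1 it was -0.10, with 68.6% below 0 and 114 genes above 0. Those 376 genes ran from -0.995 (GSTP1) to 1.06 (IFITM1), with quartiles of -0.255 and 0.04. Stretches within that set were not summarised apart. On chromosome 8, the 106 genes from FBXO25 to HOOK3 had a median of -0.42, with 90.6% below 0. In that run the second array labelled H1.3 also stood above the first, by a median of 0.20, against 0.00 between the vector-only arrays. The 8746 genes outside chromosome 11 had a median of 0.00, with 49.4% below 0. Taken by chromosome, their medians ran from -0.235 on chromosome 8 (331 genes, 87.3% below 0) to 0.065 on chromosome 1 (971 genes, 36.1%). Chromosome 21 stood at -0.15 (104 genes, 79.8%) and chromosome 10 at -0.075 (356 genes, 69.4%). Chromosome 9 stood at 0.06 (401 genes, 35.2%).

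Promoter sequence was compared over the 50 members found in the RefSeq table of stretches from 250 bases before to 50 after a gene's start, read on both strands. Their median G or C content was 64.2%, against 58.3% over all 27305 promoters of the table, and their median number of CG dinucleotides 26 against 14. The ETS motif CCGGAAG occurred in 15 members (30.0%), against 10.7% of all promoters. The 15 included ATM, CCDC82, JRKL, ZW10, UBE4A, ARCN1 and VPS11. The GC box GGGCGGG occurred in 27 members (54.0%), against 32.9%, and the CCAAT box in 17 (34.0%), against 35.7%. The TEAD motif GGAATG, the site of YAP1's partners, occurred in 3 members (6.0%, CHEK1, REXO2 and YAP1 itself) against 14%, and the TATA box TATAAA in FDX1 and ME3 (4.0%) against 12%. These shares were not tested against each other, and the part that the higher G or C content of the members' promoters plays in them was not tested. The 27305 promoters were not limited to genes of the members' level. No shares were taken for genes of that level or for the neighbours, so an excess cannot be ascribed to the members as such.

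Rarer motifs occurred in 1 to 5 members each. The NRF1 motif GCGCATGC stood in CWF19L2, DDX10, RBM7, UBE4A and USP28 (10.0%, against 3.27% of all promoters), and the cyclic AMP response element TGACGTCA in DDX10 and SIDT2 (4.0%, against 1.98%). TTTCCCGC, an E2F motif, stood in CCDC82 and RDX (4.0%, against 1.66%). The YY1 motif AAGATGGCG stood in ARCN1 (2.0%, against 1.85%). The heat shock element core TTCNNGAA stood in ARHGEF12, CEP164, HSPA8 and PAFAH1B2 (8.0%, against 7.84%). Matches of different motifs can overlap, and a match in these letters does not show that a factor binds there.

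Genes elsewhere in the genome that work with the members, or are close relatives of them, were examined in 13 lists. The lists hold 309 measured genes outside the stretch, called partner genes here. Of these, 156 (50.5%) lay below 0, the median was -0.01, 78 (25.2%) had groups without overlap on the lower side and 63 on the higher side. Over all named clusters 45.9% lay below 0, 19.4% had no overlap on the lower side and 21.2% on the higher side. At or above the median level, 133 of 268 partner genes (49.6%) lay below 0 and 65 (24.3%) had no overlap on the lower side. Among all 9308 genes at that level these shares were 50.9% and 25.6%. One gene of the 309, TMPRSS3, a serine protease related to TMPRSS4, passed limma with 6.46 and 6.21 against 5.33 and 5.49, and fell by 0.93 ± 0.14 (SE, adjusted p = 0.0477). The call was lost when any 1 array was left out, and 0.504% of all named clusters passed in either direction.

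For the Hippo pathway of YAP1, 7 of 27 genes lay below 0 and the median was 0.06. ANKRD1, a YAP1 target, measured 8.20 and 7.62 against 6.49 and 7.33 (-1.0, adjusted p = 0.221), and CRIM1 stood at 0.32 (adjusted p = 0.516). For DNA damage signalling around ATM and CHEK1, 14 of 27 lay below 0 with a median of -0.02, with CDC25B, a phosphatase that opens mitosis, at 0.47 (adjusted p = 0.275) and HUS1 at -0.28 (adjusted p = 0.547). The list of histone H4 genes, the targets of NPAT and HINFP, also held histone mRNA factors and the cell-cycle genes CDK2, CCNE1 and CCNE2. In it 11 of 21 genes lay below 0 with a median of -0.05. H4C14 and H4C15 had the same value on every array and were counted separately. Of the H4 genes, H4C3 stood at -0.70 (adjusted p = 0.141) and H4C4 at 0.31 (adjusted p = 0.396). In none of these 3 lists did a gene pass.

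The metabolic and membrane lists were likewise spread about 0. Of the 2-oxoacid dehydrogenase complexes, to which DLAT belongs, 12 of 19 genes lay below 0 with a median of -0.08, with LIAS, the lipoic acid synthase, at -0.46 (adjusted p = 0.235) and DLST at 0.33 (adjusted p = 0.473). Of the N-glycosylation genes, 14 of 26 lay below 0 with a median of -0.02, with TMEM258, an oligosaccharyltransferase subunit also on chromosome 11, at -0.74 (adjusted p = 0.111) and ALG6 at -0.53 (adjusted p = 0.292). Of the COPI, HOPS and CORVET genes, 6 of 16 lay below 0 with a median of 0.06, with the tether subunit gene VPS41 at -0.53 (adjusted p = 0.152) and the coat subunit gene COPA at 0.24 (adjusted p = 0.495). Of the amyloid precursor processing genes, 9 of 17 lay below 0 with a median of -0.02, and APLP1 and APBB1 both stood at 0.36 (adjusted p = 0.273 and 0.357). APBB1 also lies on chromosome 11.

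The widest lean to one side was in the list for intraflagellar transport and distal appendages, the partners of IFT46, DYNC2H1 and CEP164. There 24 of 30 genes lay below 0, the median was -0.13, and none passed; IFT80 stood at -0.99 (adjusted p = 0.123) and the kinesin gene KIF3B at -0.43 (adjusted p = 0.201). The lean differed between array pairs that share arrays: the first array labelled H1.3 against vector-only replicate 1 gave 24 of 30 below 0 and a median of -0.26, and the second against vector-only replicate 2 gave 15 of 30 and -0.02. For cullins and the NEDD8 system, 11 of 26 lay below 0 with a median of 0.03, with CUL7 at -0.42 (adjusted p = 0.210) and DCUN1D4 at 0.28 (adjusted p = 0.416). For condensins and the RZZ complex, 5 of 14 lay below 0 with a median of 0.02, with SMC4, a condensin ATPase, at -0.70 (adjusted p = 0.0857) and NCAPH2 at 0.33 (adjusted p = 0.534). Chaperones of the HSP70 and small heat shock protein families gave 11 of 28 below 0 and a median of 0.01. HSPB8 stood at -0.55 (adjusted p = 0.222) and STIP1, also on chromosome 11, at -0.38 (adjusted p = 0.245). For decapping and the nuclear exosome, 16 of 25 lay below 0 with a median of -0.08, with LSM5 at -0.67 (adjusted p = 0.302) and EXOSC3 at -0.48 (adjusted p = 0.205). IFT80 and SMC4 both lie on chromosome 3, and VPS41 and LSM5 both on chromosome 7. The part that position plays in these values was not tested.

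Close relatives of the members that lie elsewhere, such as paralogues, had 20 of 50 below 0 and a median of 0.05, with TMPRSS3 as the single gene that passed. List genes that lie on distal 11q without being members measured as follows: MRE11, the nuclease that senses DNA breaks with ATM, at -1.02, H2AX, the histone that ATM phosphorylates, at -0.53, SIK3 at -0.43, AMOTL1, a YAP1-binding protein, at -0.35, and FLI1 at 0.17.

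**Figure D5:**
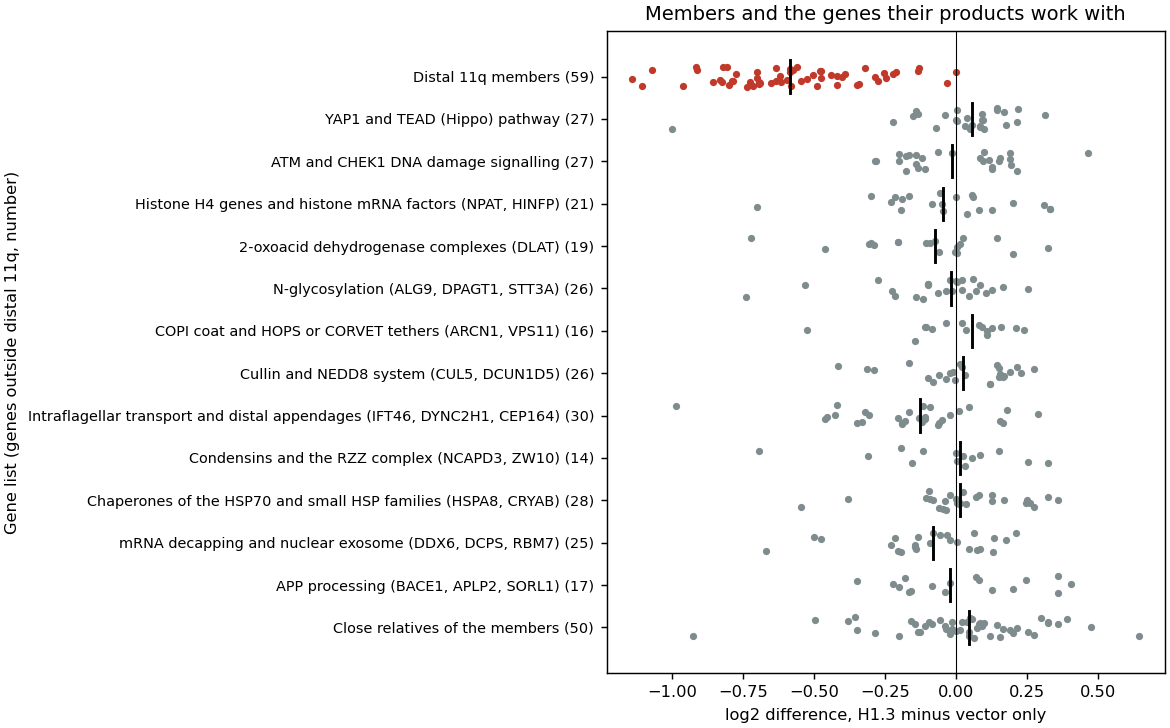
Log2 difference, arrays labelled H1.3 minus vector only, for the 59 members and for measured genes outside distal 11q in 13 lists of genes related to them; each point is a gene and each black bar a median. The members have a median of -0.59, and the list medians lie between -0.13 and 0.06.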

How the data were processed

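The authors deposited a log2 value for each of 33297 transcript clusters on each of 4 arrays, grouped here by their labels; RMA and Affymetrix Expression Console are named per the submitters' processing notes, without versions. RMA corrects background, equalises the arrays' distributions and summarises probes, so a difference shared by most genes would be removed. The series' design text gives an exon array as the platform, but the identifiers match a gene array's annotation, whose genome build is not stated. Of the clusters, 19460 carried 1 symbol, 1754 several and 12083 none here; RefSeq (GRCh38.p14) gave the gene order, with 19429 of the single-symbol clusters found by gene identifier.

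Groups were compared with limma 3.58.1 (lmFit, eBayes, two-sided, no covariate) in R 4.3.3 over the 21214 named clusters, with Benjamini-Hochberg adjustment and a threshold of 0.05. The fit had 2 residual and 5.16 prior degrees of freedom, the median SE was 0.13, and the number of arrays limits the precision. It was tested on simulated data. Python 3.11.15 and matplotlib 3.10.9 served for summaries and figures.

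The members, roles, partner lists and motifs were chosen with earlier results of these data known. Array values are given for members that pass, the lowest and highest of each role group, the printed pairs, and SNORD14C, CRYAB and ETS1. Of neighbours, those that pass and the 3 lowest and 3 highest bright ones are named, and of each list the passing genes or else the 2 of smallest p. Replicate differences of the groups correlated at 0.06 over clusters and no label names a common batch, so replicate numbers were not taken to pair arrays. Alternatives changed the moderation, scaling, filter, clusters tested and threshold, added a replicate block, or left out each array. A split of the members by level, and the members without CRYAB and IL18, whose replicates differ by over 0.8 in both groups, were added after the data were seen.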

Additional observations from a re-analysis of the deposited data

How the results depend on the processing

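Limits: with 2 arrays a group, a lone array in the fits that leave 1 out is assumed to vary like the other group, and depth as reads does not apply to arrays. The member median (-0.59) stayed at -0.62 to -0.58 under the other scalings, the filter and the other refits on all 4 arrays. It was -0.49 over the 30 members of lower level and -0.69 over the 29 of higher level, and -0.60 without CRYAB and IL18. With 1 array left out it ran from -0.73 (without H1.3 replicate 2) to -0.45 (without H1.3 replicate 1). Members below 0 ran from 56 to 59 of 59, and were 50 of 50 without dim clusters.

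Counts of calls moved further, and the cause was not tested beyond what each setting does by construction. Clusters called higher (51) and lower (56), members called (5) and partner genes called (1) became 135, 176, 16 and 2 at an adjusted p under 0.10. With a robust variance trend they were 107, 138, 14 and 3. Testing all transcript clusters gave 1, 3, 0 and 0, and no moderation gave 6, 3, 0 and 0. Without dim clusters they were 6, 19, 1 and 0. After a second quantile normalization 29 clusters were higher and 38 lower, with 3 members and 0 partner genes called. With any 1 array left out all 4 counts were 0, with 1292 to 2367 clusters at an unadjusted limma p under 0.05.

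With the replicate block, 0 clusters were higher and 0 lower, and 0 members and 0 partner genes were called, while 2195 clusters and 47 members had an unadjusted limma p under 0.05. The lowest adjusted p of a member was then 0.155.

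The median of the neighbours that are not members (-0.12) became -0.57 without dim clusters, and ran from -0.125 to -0.08 with 1 array left out, the latter without H1.3 replicate 2, and -0.085 without vector-only replicate 2. IL18, at 0.00, ran from -1.11 to 1.11 with 1 array left out and was -0.05 after a second quantile normalization. Other signs turned with 1 array left out. BACE1 ran from -0.455 to 0.015, CRYAB from -1.40 to 0.72 (0.26 without vector-only replicate 2), ETS1 from -0.885 to 0.045, and HSPA8 from -0.105 to 0.045 (0.035 without vector-only replicate 1). A further 12 members stayed below 0 but moved by over 1.5 times in such a fit, among them DYNC2H1 (-1.145 to -0.305), PTS (-0.88 to -0.21) and CCDC82 (-0.595 to -0.185). Among neighbours OAF ran from -0.155 to 0.165 (-0.03 in another such fit) and TRIM29 from -0.545 to 0.245.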

Other observations

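The other head-to-head pairs from ME3 onwards, found by distance alone, were of both kinds; those named were picked after their values were seen. MRE11, the nuclease that senses DNA breaks, and ANKRD49 start 140 bases apart and differed by -1.02 and -0.83. TAF1D, a subunit of the RNA polymerase I initiation factor, and C11orf54 start 177 bases apart and differed by -0.86 and -0.95. RPS25, a small-subunit ribosomal protein, and TRAPPC4, a vesicle tether subunit, differed by -0.61 and -0.88 at 423 bases. In other pairs 1 gene stood near 0. DDX25, a testis helicase whose mean was 3.77, differed by -0.10 beside PUS3, a pseudouridine synthase, at -0.67. FDXACB1, with a mean of 4.07, differed by -0.06 beside CFAP68, a cilium protein, at -0.78. The members RBM7 and PCSK7 faced C11orf71 and RNF214, which differed by -0.41 and -0.70. None of the genes named here passed limma.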
